A study of Mus musculus with 8 samples.

Results

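The genes described here are 10 cell surface adhesion genes of mouse muscle satellite cells: 9 immunoglobulin-type cell adhesion molecules (Vcam1, Icam1, Ncam1, Nrcam, L1cam, Chl1, Cadm1, Mcam and Alcam) and the sialomucin Cd34. They were chosen by gene name among the non-control probes of the arrays, which gave 16 probes for the 10 genes, of 55681 probes and 21750 named genes in all. Of these, 13 probes and 8 genes passed the filter on dim probes and were tested. Chl1 and Cadm1 did not pass it, and their signals are described without a test.

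Satellite cells are stem cells that lie against the muscle fibre. They were sorted by flow cytometry from male C57BL/6 mice aged 3 months, as the labels give them, keeping cells with integrin alpha 7 on their surface and removing cells with CD31, CD45, CD11b or Sca1. The 4 basal samples came from muscle without injury, and the 4 injured samples came from muscle 3 days after cardiotoxin, a venom peptide that lyses the fibres and starts regeneration. Total RNA of each sample was measured on 1 single-colour Agilent array. The comparison sets cells called quiescent by the submitters against cells they call activated. The labels name no transgene or Cre, and they call the samples biological replicates without saying whether animals were pooled. The p-values therefore set the difference between groups against the spread between these samples within a group.

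Signals are given as log2 of the processed spot signal minus the 75th percentile of the same array, so that 0 is the level which 75% of an array's spots do not exceed. Between 50.1% and 56.7% of the spots were well above background, the 75th percentile was 104 to 132 signal units, and no spot was saturated. The number of arrays limits the precision. All basal arrays lay on slide 1 and all injured arrays on slide 2, each scanned on its own, so the slide, the scan and the group cannot be told apart. Over the 13646 genes tested, the median log2 difference between injured and basal arrays was 0.17. There were 2 sets of arrays that differed from the others of their own group. Basal arrays 1 and 2 carried endothelial transcripts: Pecam1, which encodes the CD31 removed in the sort, stood at 3.20 and 2.87 there, against -2.20 and -3.22 on basal arrays 3 and 4 and -3.11 to -1.82 on the injured arrays. Injured arrays 2, 3 and 4 went against the male label: Xist, transcribed from the inactive X chromosome, stood at 6.37 to 6.57 there, and the Y-linked Ddx3y was well above background on 4 basal arrays and 1 injured array. On basal arrays 1 to 4, Xist stood at 3.85, 2.15, -1.12 and -4.97, and on injured array 1 at 1.72. The Y-linked signal thus went largely with the group, so sex and injury cannot be fully told apart here. Values of the 10 genes without basal arrays 1 and 2, or without injured arrays 2, 3 and 4, are given beside the results they change. Without injured arrays 2, 3 and 4, which leaves 1 injured array, 18 of the 67 genes called in the 6 related lists described further on were still called in limma, and 59 were without basal arrays 1 and 2. Pax7, which marks satellite cells, was well above background on all 8 arrays and fell from a mean of 4.86 ± 0.43 to 1.91 ± 0.088 (SD, n = 4 each). This 1 gene does not settle how pure the samples were.

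Immunoglobulin-type adhesion molecules hold cells to each other or to leukocyte integrins through extracellular domains folded like those of antibodies. CD34 is a mucin-like surface glycoprotein found on quiescent satellite cells, on blood stem cells and on vascular endothelium. VCAM1 and NCAM1 are commonly used to recognise satellite cells and their progeny, while ICAM1 and MCAM are best known from activated and vascular endothelium, and the L1 family from growing axons.

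After injury, 4 of the 8 tested genes were lower (Cd34, Icam1, Vcam1 and Mcam), 2 were higher (Nrcam and Alcam) and 2 did not pass the test (Ncam1 and L1cam). In limma with Benjamini-Hochberg adjustment over all genes tested and a threshold of 0.05, that is 75% of the tested genes called, beside 60.1% of all 13646 genes. Lower calls made up 24.8% of all genes and higher calls 35.3%. The median log2 difference of the 8 genes was -0.41, beside 0.17 for all genes. Signals of the groups did not overlap for 5 of the 8 genes, which is 62.5%, beside 57.2% of all genes. Among these 5, Icam1 passed the filter on dim probes through the basal group alone and Nrcam through the injured group alone. With so large a share of all genes called, these counts stay near the background, and the sizes of single differences carry the description that follows. Each gene was tested on its probe of highest mean signal, called probe 1 where a gene had several.

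**Figure D1:**
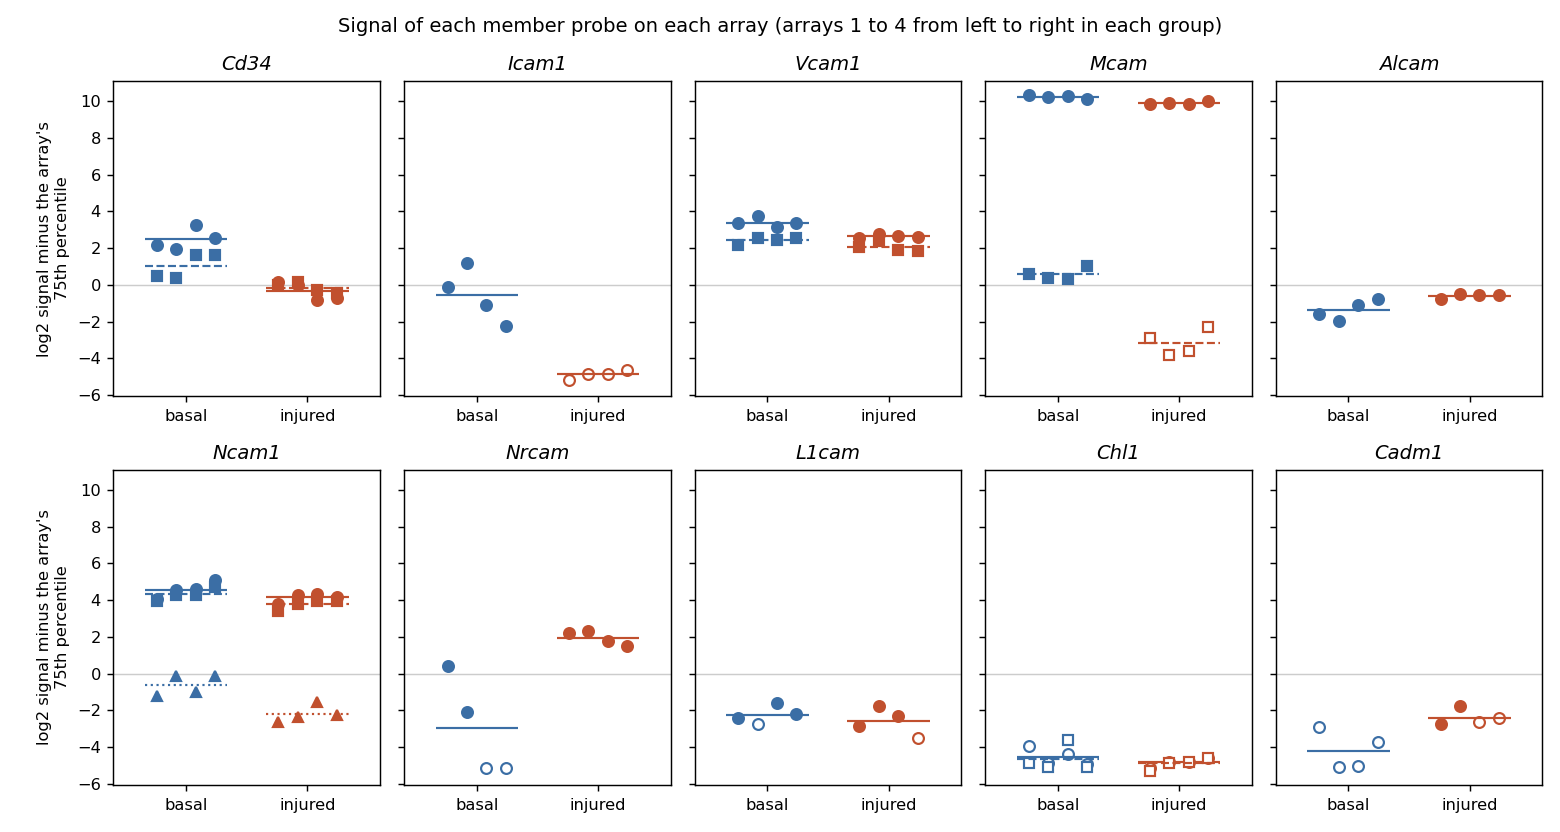
Log2 signal minus the 75th percentile of the array for each of the 16 probes of the 10 genes, on basal arrays 1 to 4 (blue) and injured arrays 1 to 4 (red). Circles, squares and triangles are probes 1, 2 and 3 of a gene, open symbols were not well above background, and lines are group means; the injured points of Icam1 and of the second Mcam probe are all open and lie below all basal points.

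Cd34 was lower after injury with both of its probes, which lie on mouse chromosome 1 (build mm9). They are shown because they differed in the size of the fall. Probe 1 (chr1:196787392-196787451, plus strand) holds the polyadenylation hexamer in capitals, and 30 of its 60 bases are given. Probe 2 (chr1:196785280-196785339, plus strand) lies upstream of it in the direction of transcription and is given whole. Exon and untranslated region were not looked up here for any probe, for want of an annotation on that build.
Cd34 probe 1: tattctcttctgAATAAAcgtgatgagtga
Cd34 probe 2: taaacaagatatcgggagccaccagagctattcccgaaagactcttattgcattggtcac

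Probe 1 of Cd34 stood at 2.19, 1.96, 3.28 and 2.55 on basal arrays 1 to 4 and at 0.14, -0.012, -0.84 and -0.69 on injured arrays 1 to 4. Every injured array lay below every basal array, with basal array 3 the highest. The log2 difference was -2.85 ± 0.33 (moderated standard error, n = 4 per group), a 7.18-fold lower signal, with an adjusted p of 0.000177 in limma. Without basal arrays 1 and 2, on which endothelial transcripts were high, it was as large, at -3.27 ± 0.35 (limma adjusted p = 0.000253). Without injured arrays 2, 3 and 4 it was -2.36 (limma adjusted p = 0.0471), and in the authors' deposited table it was smaller, at -1.62 (limma adjusted p = 0.0101). Probe 2 stood at 0.47, 0.39, 1.63 and 1.64 on the basal arrays and at -0.027, 0.15, -0.30 and -0.47 on the injured arrays. These groups also did not overlap, but basal arrays 1 and 2 lay much closer to the injured arrays than basal arrays 3 and 4 did. Its difference was -1.19 ± 0.33 (limma adjusted p = 0.014 over the 31315 probes tested, 56.9% of which were called). The fall was larger with probe 1 than with probe 2 by 1.65 on the log2 scale (exact permutation test, two-sided, p = 0.0286, the smallest p that 4 against 4 arrays allow; 0.0429 after adjustment over 6 pairs of probes). Both probes are listed for the same RefSeq transcripts in the array annotation.

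Of 8 relatives of CD34 and other sialomucins, 5 were tested: 2 were lower, 2 were higher and 1 was not called (80% called), with a median of -0.15. Podxl2, which encodes endoglycan, a relative of CD34, was lower by a log2 difference of -2.11 ± 0.25, or by -0.80 without a call in the authors' deposited table (limma adjusted p = 0.222). Muc1, an epithelial mucin, differed by -1.33 ± 0.34 and was not well above background on any injured array, so that its signal was at least 2.12-fold lower than on the basal arrays, of which 3 were above background. Without basal arrays 1 and 2 Muc1 differed by -0.85 and lost its call (limma adjusted p = 0.0651). Spn, which encodes the leukocyte sialophorin, differed by 1.14 ± 0.19, and Selplg, which encodes the P-selectin ligand, by 0.46 ± 0.13. In the authors' deposited table both turned, with differences of -2.11 for Spn and -1.65 for Selplg that did not pass limma's test. Podxl, the closest relative of CD34, was well above background on 2 basal arrays and no injured array and was not tested. Its signals were -1.01 and -1.29 on basal arrays 1 and 2, the arrays with the endothelial transcripts, and -5.29 to -3.45 on the other 6.

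Icam1, the receptor for the beta 2 integrins of leukocytes, was well above background in the basal group only. Its probe (chr9:20832290-20832349, mm9, plus strand) is given whole.
Icam1 probe: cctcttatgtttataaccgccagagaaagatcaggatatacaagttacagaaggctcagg

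On basal arrays 1 to 4 the Icam1 signal was -0.14, 1.18, -1.10 and -2.25, and on injured arrays 1 to 4 it was -5.20, -4.83, -4.84 and -4.62. The probe was well above background on all 4 basal arrays and on none of the injured arrays, and the groups did not overlap. Icam1 thus passed the filter on dim probes through the basal group alone. The difference was -4.30 ± 0.62 (limma adjusted p = 0.000519), a value that rests on injured signals not above background. Since the injured level is only a bound, the signal was at least 6.13-fold lower. For such bounds, each array of the dim group is set to the lowest signal of any probe well above background on it, or to the probe's own signal where that is higher. The 2 highest basal values of Icam1 were those of arrays 1 and 2, with array 2 the highest. The mean of 11 tested endothelial markers was 1.77 and 1.40 on basal arrays 1 and 2 and -1.31 and -1.16 on basal arrays 3 and 4. The part of endothelial cells in the Icam1 signal was not tested. Against basal arrays 3 and 4 alone, Icam1 differed by -3.20 ± 0.32 (limma adjusted p = 0.000197), and with the same bound its signal was at least 2.87-fold lower. With a different background correction (normexp with an offset of 50), which pulls dim signals together, the difference was -1.29 (limma adjusted p = 0.00831 with the same scaling), and without injured arrays 2, 3 and 4 it was -4.62 and no longer passed the test (limma adjusted p = 0.0639). In the authors' deposited table it was -2.07 (limma adjusted p = 0.0426).

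Icam1 is a textbook target of NF-kB, so its promoter is shown. RefSeq promoter sequences (build GRCm38.p6) were found for 7 of the 10 genes, in 8 windows from 250 bases before to 50 bases after the transcription start. The sequence below is the part before the start of Icam1, chr9:21015690-21015939 on the plus strand. Capitals mark an NF-kB motif (GGAAATTCC, or GGAATTTCC on the other strand), which begins 153 bases before the start.
Icam1 promoter: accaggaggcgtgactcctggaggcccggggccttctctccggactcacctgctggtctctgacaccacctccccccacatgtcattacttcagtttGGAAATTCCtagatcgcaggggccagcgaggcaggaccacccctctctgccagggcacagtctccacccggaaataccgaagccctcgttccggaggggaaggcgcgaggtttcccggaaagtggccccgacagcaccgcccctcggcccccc

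Of the 8 windows, among which those of L1cam overlap, 1 held the motif, that of Icam1. Among all 32851 promoter windows of 300 bases, it occurred in 104 (0.317%). Only these exact letters were searched, which are those of the Icam1 site shown. Other forms of NF-kB site were therefore not counted, and the shares do not measure an enrichment. The shares were not compared by a test. No window was found for Vcam1, Ncam1 or Cadm1. A match of letters is a description and no evidence of binding.

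Of 18 tested NF-kB components and feedback genes, 11 were lower, 3 were higher and 4 were not called (77.8% called), with a median of -0.94. Tnfaip3, which encodes the A20 inhibitor, differed by -3.21 ± 0.57, Nfkbiz by -2.81 ± 0.30, and Nfkbia, which encodes the inhibitor IkB alpha, by -1.55 ± 0.33. Irf1, an interferon-induced transcription factor, differed by -2.86 ± 0.42. Tnfaip3 (-1.19) and Irf1 (-1.67) were not called in the authors' deposited table, and without basal arrays 1 and 2 their differences were -2.53 and -2.17, both called in limma. Higher were Ikbkg, the regulatory subunit of the IkB kinase, by 1.42 ± 0.49, and Nfkb2 by 1.33 ± 0.29. Ikbkg was well above background on 3 injured arrays and on no basal array, which makes it at least 1.49-fold higher. Its call was lost without basal array 2 or 3, without both basal arrays 1 and 2 and without injured array 1, 3 or 4, when the difference was 0.998 to 1.501.

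Vcam1, the ligand of the integrins alpha 4 beta 1 and alpha 9 beta 1, was somewhat lower after injury and stayed far above background. Probe 1 (chr3:115828953-115829012, mm9, minus strand) gave 3.35, 3.75, 3.13 and 3.35 on the basal arrays and 2.53, 2.79, 2.64 and 2.62 on the injured arrays. The groups did not overlap, and the injured arrays lay closer together than the basal ones.
Vcam1 probe 1: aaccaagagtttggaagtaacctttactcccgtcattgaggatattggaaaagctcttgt

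The difference was -0.75 ± 0.15, or 1.68-fold lower (limma adjusted p = 0.00306), but in the authors' deposited table it turned to 0.13 (limma adjusted p = 0.797), with mean levels of 11.53 in basal and 11.67 in injured samples. Probe 2 (chr3:115813216-115813275, minus strand) ranged from 2.17 to 2.57 in the basal group and from 1.84 to 2.39 in the injured group, which overlap. Its difference of -0.39 ± 0.17 did not pass the test (limma adjusted p = 0.0762 over probes). The 2 probes did not differ detectably in their change, with a gap of 0.36 (exact permutation test, two-sided, p = 0.114; adjusted p = 0.137). Without injured arrays 2, 3 and 4 the difference of probe 1 was -0.86 with a limma adjusted p of 0.125.

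Of 17 integrin and leukocyte counter-receptors of these molecules, 10 were tested. None was called lower, 3 were called higher (30% called) and 7 were not called, and the list's median was 0.22. Lgals3, which encodes the glycan-binding galectin 3, stood at 3.53, 2.44, -0.55 and -1.44 on basal arrays 1 to 4 and at 4.90 to 5.17 on the injured arrays, a difference of 4.02 ± 1.00. Against basal arrays 3 and 4 alone the Lgals3 difference was 6.01 (limma adjusted p = 1.1e-05). Itgb2, the beta 2 chain of the ICAM1 receptors, was higher by 1.46 ± 0.15, and Itgb1, the beta 1 chain of the VCAM1 receptor, by 0.74 ± 0.16, or by 0.41 without a call under quantile normalization. Neither Itgb2 (1.02) nor Itgb1 (0.41) was called in the authors' deposited table. Itga4 and Itga9, the alpha chains that pair with beta 1 to bind VCAM1, were not well above background on any array. Ptprc, which encodes the CD45 removed in the sort and marks leukocytes, was well above background on all 8 arrays, at -1.67 to -0.033 on basal and -1.45 to -0.91 on injured arrays, with no called difference (-0.18, limma adjusted p = 0.698), but against basal arrays 3 and 4 alone it was lower by -0.88 (limma adjusted p = 0.00906). Of 9 tested leukocyte markers, 2 were higher and 1 was lower (33.3% called, beside 60.1% of all genes).

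Mcam, a receptor of endothelium, pericytes and melanoma cells, gave changes of very different size with its 2 probes, which are shown for that reason. Probe 1 (chr9:43950664-43950723, mm9, plus strand) crosses a GT repeat of 20 bases, in capitals, with 30 of its 60 bases given. Probe 2 (chr9:43949385-43949444, plus strand) holds no such repeat and is given whole.
Mcam probe 1: tgagGTGTGTGTGTGTGTGTGTGTatacat
Mcam probe 2: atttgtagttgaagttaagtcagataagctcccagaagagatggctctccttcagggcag

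Probe 1 was among the brightest of all probes, at or above 99.87% of them, with 10.32, 10.23, 10.28 and 10.12 on the basal arrays and 9.88, 9.93, 9.83 and 10.02 on the injured arrays. Across the array, 75 probes hold a GT or TG run of at least 16 bases, and 73 of them (97.3%) stood above 8, a level that 302 of all 55681 probes (0.542%) exceeded. The difference of probe 1 was -0.32 ± 0.11 (limma adjusted p = 0.0325), 52 of the 75 repeat probes (69.3%) were called at the probe level, and their median difference was -0.38. For probe 1 the call was lost under quantile normalization (-0.13, limma adjusted p = 0.286), and in the authors' deposited table the difference was 0.013 (limma adjusted p = 0.973).

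Probe 2 of Mcam gave 0.59, 0.38, 0.33 and 1.02 on the basal arrays, all well above background, and -2.92, -3.82, -3.57 and -2.28 on the injured arrays, none of which was. The groups lay far apart. This probe passed the filter on dim probes through the basal group alone. The difference was -3.73 ± 0.33 (limma adjusted p = 5.56e-05 over probes), which makes the signal at least 11.2-fold lower. With the repeat probes left out, a choice made after seeing these 2 probes, probe 2 represents the gene and the fall is -3.73 (limma adjusted p = 4.76e-05 over genes). Both probes were lower after injury, and since the injured level of probe 2 is only a bound, their changes differed by at least 3.17 on the log2 scale (exact permutation test at the bound, two-sided, p = 0.0286). The part of the repeat in the signal of probe 1 was not tested.

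Alcam, the ligand of CD6 and a homophilic adhesion molecule, was higher after injury by a small margin. Its probe spans an intron (chr16:52268908-52270785, mm9, minus strand).
Alcam probe: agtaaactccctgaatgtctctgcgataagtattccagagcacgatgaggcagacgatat

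The Alcam signal was -1.56, -1.97, -1.12 and -0.79 on the basal arrays and -0.79, -0.48, -0.53 and -0.55 on the injured arrays. Basal array 4 reached the lowest injured array, so the groups touch. The difference was 0.77 ± 0.24, a 1.71-fold rise (limma adjusted p = 0.0236). It did not pass the test without basal array 1 (0.70), without injured array 2 (0.73), 3 (0.75) or 4 (0.76), or without basal arrays 1 and 2 together, when it was 0.37 (limma adjusted p = 0.0821).

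Ncam1, which encodes the neural cell adhesion molecule of neurons, glia and myogenic cells, did not pass the test on its brightest probe, and its 3 probes did not change alike. They are shown because the array annotation assigns them to different transcripts. Probe 1 (chr9:49310320-49310379, mm9, minus strand) is listed for transcript variant 3 and a further transcript, probe 2 (chr9:49351182-49351241) for those and variant 2, and probe 3 (chr9:49323381-49323440) for variant 2 alone among the RefSeq transcripts. Probe 2 is given whole and the others by 30 bases.
Ncam1 probe 1: actttttactgagtgaaacatcaacaccac
Ncam1 probe 2: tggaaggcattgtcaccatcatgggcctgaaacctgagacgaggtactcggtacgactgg
Ncam1 probe 3: ctgtgtattagtacagtccgtacaccatgt

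Probe 1 gave 4.04, 4.55, 4.60 and 5.12 on the basal arrays and 3.81, 4.27, 4.34 and 4.16 on the injured arrays. The groups overlapped through basal array 1, and the difference of -0.43 ± 0.23 was not called (limma adjusted p = 0.139). It was called without basal array 1 (-0.61, limma adjusted p = 0.0276), under quantile normalization (-0.77) and with normexp correction (-0.53 with the 75th percentile), and it was 0.0019 in the authors' deposited table. Probe 2 ranged from 3.97 to 4.74 in the basal group and from 3.40 to 3.96 in the injured group, with a difference of -0.54 ± 0.20 (limma adjusted p = 0.0492 over probes). Probe 3, listed for variant 2, gave -1.23, -0.12, -1.003 and -0.13 on the basal arrays and -2.65, -2.34, -1.54 and -2.26 on the injured arrays. No injured value reached a basal one, and the difference was -1.58 ± 0.33 (limma adjusted p = 0.00368 over probes). Its fall was larger than that of probe 1 by 1.15 and than that of probe 2 by 1.04 (exact permutation tests, two-sided, p = 0.0286 each; adjusted p = 0.0429), while probes 1 and 2 differed by 0.10 (exact permutation test, p = 0.371). In the authors' deposited table probe 3 turned, with mean levels of 8.18 in basal and 8.39 in injured samples.

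Nrcam, an L1 family molecule of axons and nodes of Ranvier, was the other gene called higher after injury. Its probe (chr12:45699758-45699817, mm9, plus strand) is given by 30 of its bases.
Nrcam probe: gcatacgtttttgttcagagtggggttttt

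On injured arrays 1 to 4 the Nrcam signal was 2.23, 2.31, 1.76 and 1.51, all well above background. On basal arrays 1 to 4 it was 0.39, -2.08, -5.14 and -5.12, and it was well above background on arrays 1 and 2 only. All injured arrays exceeded all basal arrays, and the basal arrays fell into the same pairs as for Pecam1. Nrcam passed the filter on dim probes through the injured group alone. The difference was 4.94 ± 1.14 (limma adjusted p = 0.00531). Against basal arrays 3 and 4 alone it was 7.08 ± 0.25 (limma adjusted p = 7.81e-06), and since neither was above background, the signal was at least 34-fold higher after injury. Normexp correction gave 2.49, and the values of the authors' deposited table gave 3.23, both called. Without injured arrays 2, 3 and 4 the difference was 5.21 and was not called (limma adjusted p = 0.161). Xist stood at 3.85 and 2.15 on basal arrays 1 and 2 and at -1.12 and -4.97 on basal arrays 3 and 4. It stood at 1.72 on injured array 1 and at 6.37 to 6.57 on injured arrays 2, 3 and 4. The part of Xist in the Nrcam result was not tested.

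L1cam, the founding member of the L1 family and X-linked (chrX:71100374-71100433, mm9, minus strand), lay near background. It gave -2.41, -2.74, -1.59 and -2.18 on the basal arrays and -2.85, -1.75, -2.32 and -3.50 on the injured arrays, and it was well above background on 3 arrays of each group. The ranges overlapped almost wholly, and the difference of -0.38 ± 0.39 was not called (limma adjusted p = 0.419). In the authors' deposited table it was -2.25, also without a call (limma adjusted p = 0.141). Chl1, the close homologue of L1, was not well above background on any array with either probe, at -4.94 to -3.93 on basal and -5.16 to -4.58 on injured arrays with its brighter probe (chr6:103682933-103682992, mm9, plus strand). Its other probe (chr6:103667565-103667624) gave -5.10 to -3.62 and -5.28 to -4.59.

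Among 22 tested partners, cytoskeletal anchors and polysialylation enzymes of the L1 and NCAM families, 11 were lower, 8 were higher and 3 were not called (86.4% called). Their median of -0.46 turned to 0.38 in the authors' deposited table. Lower were Ptprz1, a receptor phosphatase that binds contactins and NRCAM, by -5.23 ± 0.34 and at least 12.4-fold, the GDNF co-receptor Gfra1, which also pairs with NCAM, by -4.47 ± 0.29, Fgfr1, a growth factor receptor that NCAM engages, by -2.10 ± 0.19, and the endocytic adaptor Numb by -1.70 ± 0.15. Higher were St8sia2, the enzyme that adds polysialic acid to NCAM, by 4.15 ± 0.97, and Sema3a, a guidance ligand whose receptor complex includes L1 family molecules, by 3.18 ± 0.73. The St8sia2 signal rose from a basal mean of -0.77 ± 2.29 to 3.38 ± 0.19 (SD, n = 4 each), and the basal values were split between arrays, at 1.499, 0.67, -1.74 and -3.52 on arrays 1 to 4. Against basal arrays 3 and 4 alone the St8sia2 difference was 6.01 (limma adjusted p = 6.06e-05). Sema3a differed by 3.82 without basal array 1 and by 2.45 without basal array 2. The Ptprz1 difference in the authors' deposited table was -1.32 without a call (limma adjusted p = 0.146), while Gfra1 was lower by -2.46. St8sia4, the other NCAM polysialyltransferase, was not well above background on any array.

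Cadm1, a nectin-like molecule of epithelia, neurons and mast cells (chr9:47658414-47658473, mm9, plus strand), was well above background on injured arrays 1 and 2 only and was not tested. Its signals were -2.89, -5.07, -5.06 and -3.75 on the basal arrays and -2.76, -1.78, -2.65 and -2.41 on the injured arrays. No basal array reached an injured one, with basal array 1 close to injured array 1. With no filter on dim probes, Cadm1 was called higher, by 1.79 ± 0.50 (limma adjusted p = 0.021), a value that rests on signals below background on 6 of the 8 arrays, and Chl1 was not called.

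Beyond the 10 genes, 35 of 53 other immunoglobulin-type adhesion genes were tested: 11 were lower, 6 were higher and 18 were not called (48.6% called), with a median of -0.17. Thy1, a small GPI-anchored surface protein, fell by 3.35 ± 0.26 on the log2 scale. Nectin1, an adherens junction molecule, was lower by 2.31 ± 0.28 on the main scale and turned to 0.26 without a call in the authors' deposited table, and Clmp, a tight junction relative, fell by 1.77 ± 0.16. Cxadr, the coxsackie and adenovirus receptor of tight junctions, was higher by 2.75 ± 0.65, or by 3.77 without basal arrays 1 and 2, and the synaptic molecule Sdk2 by 1.13 ± 0.14, or by 0.13 without a call in the authors' deposited table. Pecam1 differed by -2.38 ± 1.43 without a call (limma adjusted p = 0.178), its basal values being split between arrays as given above, and by 0.49 without basal arrays 1 and 2.

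Proteases that shed adhesion molecules from the surface, and their inhibitor, moved in both directions. Of 12 tested, 7 were lower, 3 were higher and 2 were not called (83.3% called). The median of -0.51 turned to 0.74 in the authors' deposited table. Mmp2, a gelatinase, was lower by 7.19 ± 0.18 on the log2 scale and at least 104-fold. Timp3, an inhibitor of ADAM17 and of metalloproteinases, fell by 3.59 ± 0.35, Psen2, a gamma-secretase subunit, by 2.55 ± 0.32, and Mmp14, a membrane-type metalloproteinase, by 0.97 ± 0.32. Mmp14 was not called without basal array 3 or 4 or without injured array 1 or 2, with differences of -0.88 to -0.74. Psen2 (-0.59) and Mmp14 (-1.94) were not called in the authors' deposited table. Adam8, a protease of leukocytes and regenerating muscle, was higher by 2.47 ± 0.44, or by 3.24 without basal arrays 1 and 2, and Aph1a, another gamma-secretase subunit, by 0.79 ± 0.11 on its brightest probe, but by -0.019 with the mean of its probes.

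**Figure D2:**
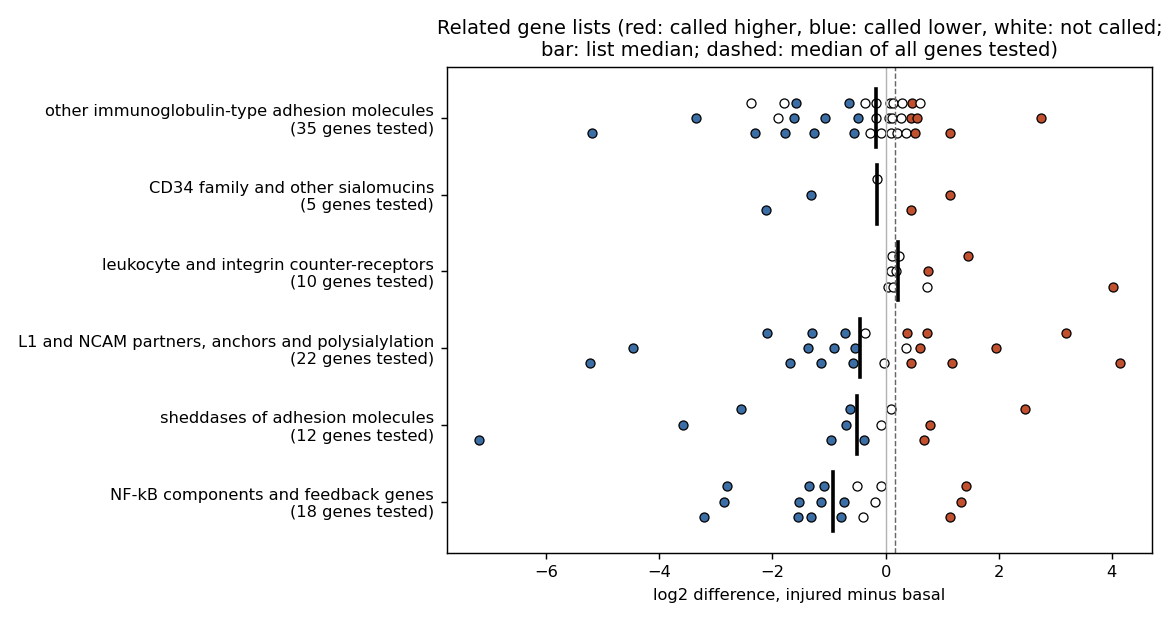
Log2 difference, injured minus basal, of each tested gene in 6 lists of related genes (red, called higher; blue, called lower; white, not called at a limma adjusted p of 0.05), with each list's median as a bar and the median of all 13646 genes, 0.17, as a dashed line. The NF-kB list has the lowest median, -0.94, and the counter-receptor list, at 0.22, has no gene called lower.

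**Figure D3:**
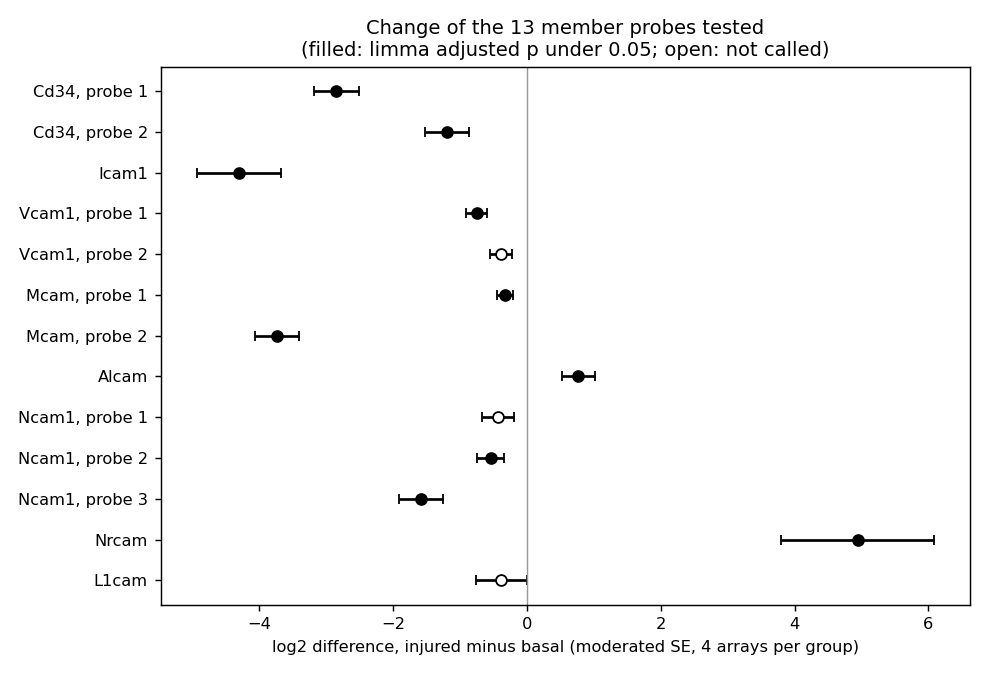
Log2 difference, injured minus basal, with moderated standard errors, for the 13 probes tested (4 arrays per group; filled, limma adjusted p under 0.05 over probes). Probes of 1 gene differ most for Mcam (-0.32 and -3.73), then for Cd34 (-2.85 and -1.19) and Ncam1 (-0.43, -0.54 and -1.58).

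Markers of the other cell types that a sort of muscle could hold are set beside these genes here. In sorted bulk RNA, fewer cells of a type and less RNA per cell cannot be told apart. Among all 13646 genes tested, 60.1% were called, 24.8% lower and 35.3% higher. Of 11 tested endothelial markers, 2 were lower and 1 was higher (27.3% called). Their mean signal was 1.77, 1.40, -1.31 and -1.16 on basal arrays 1 to 4 and -1.71 to -1.15 on the injured arrays. The defining endothelial gene Cdh5 was well above background on 2 basal arrays and no injured array. Of 12 pericyte and smooth muscle markers, 7 were lower and 0 were higher (58.3% called). The share called in either direction was near that of all genes, but every call was lower. The means of these 12 markers were 0.93 to 1.40 on basal and -0.80 to -0.30 on injured arrays. Rgs5, which defines pericytes, was at least 18.2-fold lower, while Cspg4, which encodes NG2, differed by -0.37 without a call (limma adjusted p = 0.137).

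Of 8 tested Schwann cell and glial markers, 5 were lower and 1 was higher (75% called). The means of these markers were 0.69 to 1.68 on basal and -1.03 to -0.80 on injured arrays. Among them, Sox10, a transcription factor of the glial lineage, differed by -1.65 ± 0.26, or by -0.25 without a call in the authors' deposited table. Of 9 tested markers of fibro-adipogenic progenitors, the stromal cells of muscle, 7 were lower and 0 were higher (77.8% called). Their means were 0.51 to 1.08 on basal and -2.35 to -1.47 on injured arrays. However, Pdgfra, which defines these cells, was not well above background on any array. Of 12 tested satellite cell and myogenic genes, 6 were lower and 4 were higher (83.3% called). Cd34, Icam1, Mcam and Ncam1 are known from several of these cell types, and the part of such cells in the falls was not tested.

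**Figure D4:**
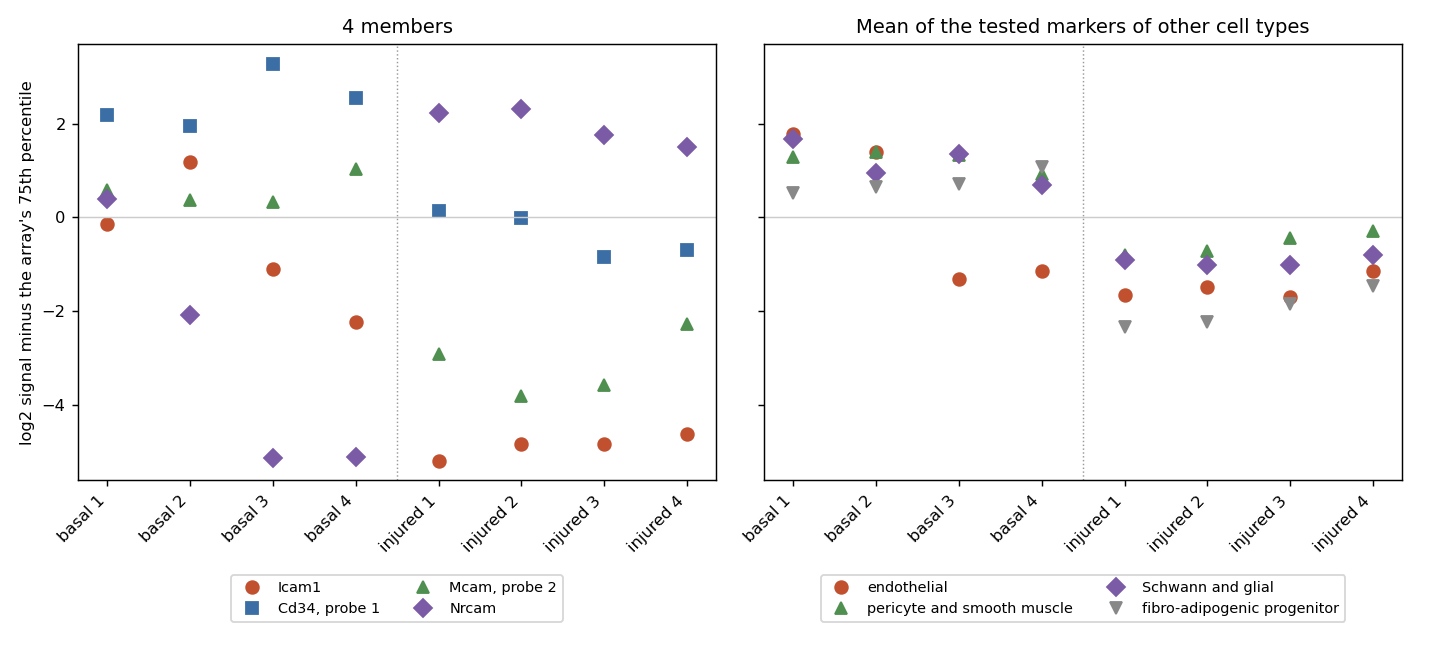
Log2 signal minus the 75th percentile of the array, on each of the 8 arrays, for Icam1, Cd34 (probe 1), Mcam (probe 2) and Nrcam on the left and for the mean of the tested markers of 4 other cell types on the right. The endothelial mean is high on basal arrays 1 and 2 only, the other 3 means are high on all basal arrays, and Nrcam is the one gene of the left panel that is higher on the injured arrays.

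The genes whose signals followed those of the 6 called genes most closely over the 8 arrays, of 12660 compared, are given as a description, since 2 groups that lie apart give high correlations for many genes. For Cd34 they were Adat1 and Klhl17 (Pearson r 0.995 and 0.994), for Icam1 Eps8l1 and the death receptor Fas (0.996 and 0.993), and for Vcam1 Sec62 and Tppp3 (0.988 and 0.985). Map4k1 and Nme1 were closest to Nrcam (0.997 each), Pxmp2 and Rtcb to Alcam (0.984 and 0.979), and Capza1 and Wdr89 to the repeat probe of Mcam (0.995 each). Fas differed by -3.27 between injured and basal arrays, and Map4k1 by 4.01.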

How the data were processed

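The 8 scanner files hold the authors' spot signals in intensity units, background-subtracted by Agilent Feature Extraction (version 10.7.3.1, per the file headers) and not normalized between arrays. A further table deposited by the authors holds log2 values with the same sorted values in every column (median 8.02), each correlating with its own array at r of 0.70 to 0.93 over probes; the columns of injured 1 and 4 correlated slightly more with injured array 2 (0.8802 against 0.8795, and 0.9179 against 0.9067). The submitters' processing notes name limma; how the table was made is not given in the sources used here, and its log2 scale was read from the values. It served as an alternative only.

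From log2 of each non-control spot's processed signal, the array's own 75th percentile was taken away. Spots marked as outliers were left out and spots of a probe averaged. Each gene was represented by its probe of highest mean signal and tested if the software marked that probe as well above background on 3 or 4 arrays of either group. The test was limma's (version 3.58.1, R 4.3.3; lmFit and eBayes, two-sided, 6 residual and 2.55 prior degrees of freedom), with Benjamini-Hochberg adjustment and a threshold of 0.05. An unadjusted p under 0.05 was found for 8809 genes. The script was tested on simulated data. Errors are moderated standard errors unless an SD is named.

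The members, the lists of related genes and markers, and the alternatives were chosen with earlier results of these data known. Named genes were the 10 members, in each related list up to 4 called genes of largest difference in the direction of most calls and up to 2 in the other, 10 defining markers, and for each called member the 2 genes of highest Pearson r. Podxl, Itga4, Itga9, St8sia4, Tek, Cldn5, Xist and Ddx3y were chosen after their values were seen. Some genes that this rule names are not reported here.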

Additional observations from a re-analysis of the deposited data

How the results depend on the processing

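Cd34, Icam1, Nrcam, L1cam and Alcam kept direction under every alternative that gave them a value. Cd34 also kept its call throughout, and L1cam its lack of one. In the authors' deposited table Cd34 was -1.62, Icam1 -2.07 and L1cam -2.25. Ncam1 passed the test under quantile normalization (-0.77), normexp with quantile normalization (-0.86), normexp with the 75th percentile (-0.53), the mean of all probes (-0.85) and without basal arrays 1 and 2 (-0.71). Mcam's repeat probe lost its call under quantile normalization (-0.13), normexp with quantile normalization (-0.076), no filter on dim probes (-0.32; 3 members, with Cadm1 at 1.79, were then called higher), the replicate block (-0.32) and without basal arrays 1 and 2 (-0.29). In the authors' deposited table Vcam1 (0.13), Ncam1 (0.0019) and Mcam (0.013) turned, Alcam was 1.19 without a call, 1 member was called higher and 2 lower, 772 genes were called lower, and the medians of the L1 and NCAM partners (0.38) and sheddases (0.74) turned; the cause was not tested. All genes shifted by a median of 0.47 there, and by 0.064 to 0.17 under the other scalings.

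Without injured arrays 2, 3 and 4, which leaves 1 injured array assumed to vary like the others, 756 genes were called higher and 997 lower, 0 members higher and 1 lower (Cd34). Uncalled there were Vcam1 (-0.86), Icam1 (-4.62), Nrcam (5.21), Mcam (-0.36) and Alcam (0.57). Without basal arrays 1 and 2, Alcam was 0.37 without a call and 1 member was called higher, as when only probes above background on all arrays were kept, where Icam1, Nrcam and L1cam gave no value. The median of the leukocyte markers turned to 0.072 under quantile normalization and 0.020 under normexp with quantile normalization.

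Leaving out each array in turn gave differences of -3.02 to -2.58 for Cd34, -4.85 to -3.71 for Icam1, -0.84 to -0.63 for Vcam1 and 4.22 to 6.07 for Nrcam, all called, and -0.36 to -0.30 for Mcam, 0.57 to 0.96 for Alcam and -0.61 to -0.25 for Ncam1, with calls that varied; the cause was not tested. Between 1 and 2 members were then called higher and 3 to 4 lower, and the leukocyte median ran from -0.13 to 0.093. The replicate number was fitted as a replicate block, although same-numbered arrays did not deviate together (r of -0.0012 to 0.094); 4561 genes were then called higher and 3194 lower, and Mcam was the one member to lose its call (limma adjusted p = 0.0938). The slide block was not run, since each slide holds 1 group.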
